A study of Schmidtea mediterranea with 60 samples.

Results

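The 45 transcript features described here were lower in control tails of the planarian Schmidtea mediterranea at every time sampled after amputation. They were selected on measured values. In tails given egfp;egfp RNAi, log2 of the group mean plus 10 was compared between each later time and 0dpa, and a feature was kept when all 3 differences were at or below -0.6 and the lowest was at or below -1. Of 36035 features in the tail table, 12868 reached a group mean of 50 in at least 1 of the 4 control groups, and 45 of these, 0.350%, met the rule, so its limit of 200 was not reached.

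Bulk RNA was sequenced from tails and from whole bodies of animals treated by RNAi, in which double-stranded RNA lowers a chosen transcript. Tails carried egfp;egfp RNAi (the control, against a sequence foreign to the animal), opa1;egfp RNAi or opa1;drp1 RNAi (double RNAi), each sampled at 0dpa, 6hpa, 1dpa and 2dpa, where hpa and dpa count hours and days post amputation. Whole bodies carried egfp (control), opa1, drp1 or sod2 RNAi, each sampled at homo and at 1dpa, and no source used here says what homo stands for. Each of the 12 tail groups and 8 whole-body groups held 3 libraries, 60 libraries in all. All groups, controls included, had received double-stranded RNA. Since no label ties replicates to separate animals or says how many were pooled, the p-values cover no more than the variation among these libraries, and that may be technical.

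Planarians replace lost parts from neoblasts, dividing stem cells spread through the body. Amputation sets off a fast transcriptional response at the wound, followed by new growth and by remodelling of the tissue that remains. OPA1 fuses the inner membranes of mitochondria, DRP1 is the dynamin-like protein that splits mitochondria, and SOD2 removes superoxide in the mitochondrial matrix. The files identify features by number and pair none with a gene name, so the roles of the 45 features, cell type markers and the levels of the RNAi targets were not analysed here. In bulk RNA, fewer cells of a type and less RNA per cell cannot be told apart.

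Tail values, scaled before deposit, had library totals of 8345034 to 14472026, and whole-body estimated counts had totals of 10611093 to 14328908. One feature that is not among the 45, SMED30032887, took a large share of each tail library that moved with time. In control tails its share was 12.6% to 15.1% at 0dpa, 21.2% to 29.2% at 6hpa and 9.52% to 9.86% at 1dpa. In opa1;egfp tails it was 6.69% to 9.08% at 0dpa and 10.4% to 13.5% at 6hpa, and in opa1;drp1 tails 10.4% to 11.4% and 18.8% to 22.9%.

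Control tails chose the features, so their values are a description. The control mean at 0dpa ran from 54.0 to 34501 scaled units, with 8 features at 1000 or more, 26 between 100 and 1000 and 11 under 100. The median feature stood at 50.1% of its 0dpa mean at 6hpa, at 46.8% at 1dpa and at 45.3% at 2dpa, where the median of all 20681 features tested stood at 91.9%, 102.7% and 104.3%. The lowest of the 3 later times was 6hpa for 12 features, 1dpa for 14 and 2dpa for 19. With limma over all features, 40, 37 and 42 of the 45 had an adjusted p under 0.05 at 6hpa, 1dpa and 2dpa and were lower, where 23.5%, 6.88% and 8.33% of all features were, and nothing is read from these counts.

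At the first threshold the last features inside were SMED30004098 and SMED30005838, with highest differences of -0.60 and -0.60, and the first outside were SMED30014713 and SMED30014191, with -0.59 and -0.58. At the second, SMED30003661 and SMED30014121 were the last inside, with lowest differences of -1.03 and -1.02, and SMED30014900 and SMED30016269 were just outside, at -0.9996 and -0.9994. A further 25 features met the first threshold without any difference down to -1. Leaving out 1 control library gave 40 features (without 2dpa replicate 2) to 65 (without 0dpa replicate 1), which included 33 to 43 of the 45, and 20 of the 45 were in every such selection. With SMED30032887 removed and libraries rescaled, 41 features met the rule, 33 of them among the 45.

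**Figure D1:**
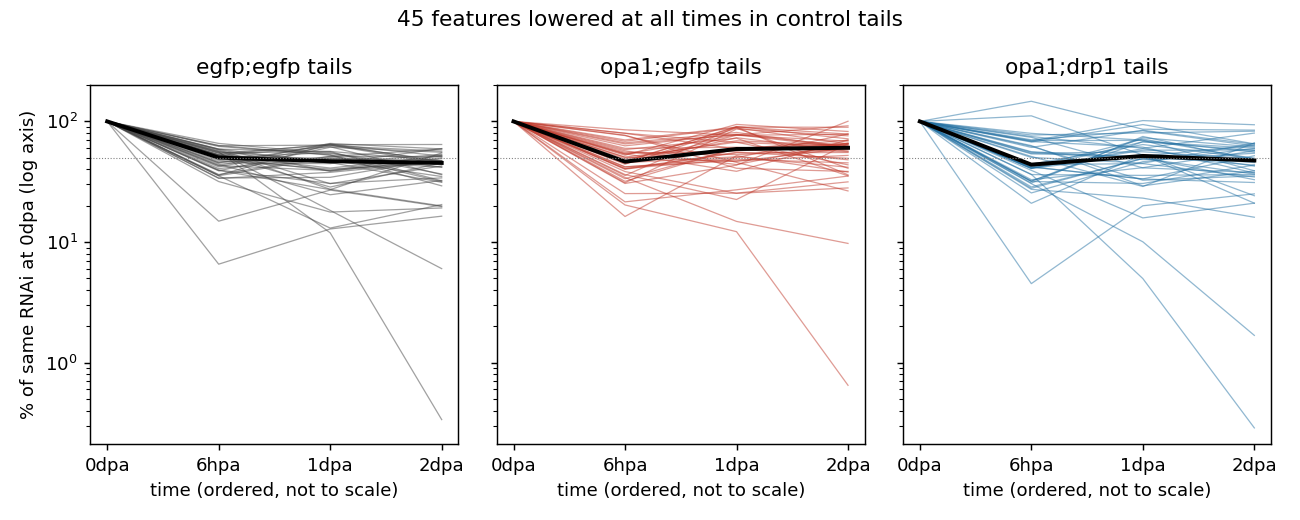
Group mean of each of the 45 features as a percentage of its 0dpa mean in the same RNAi (log axis) at the 4 times, with 1 thin line per feature, the median in black and 50% dotted. By 2dpa the median is 45.3% in control, 60.4% in opa1;egfp and 47.5% in opa1;drp1 tails.

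The opa1;egfp and opa1;drp1 libraries took no part in the selection, and most of the 45 features fell there too. In opa1;egfp tails 35 of 45 fell from 0dpa to 6hpa, where 20.9% of all features did. By 1dpa 25 of 45 had fallen, against 13.8% of all features, and by 2dpa 25 of 45, against 4.55%. None of the 45 rose at any of these times, where 18.4%, 14.3% and 5.62% of all features did. The median log2 change of the 45 was -1.09, -0.75 and -0.71, and that of all features -0.12, 0.06 and 0.05. These tests used limma on log2 of the value plus 1, which understates changes of low features, with Benjamini-Hochberg adjustment over all 20681 features, and an adjusted p under 0.05 was called a change.

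With double RNAi 34 of 45 features fell by 6hpa, where 29.2% of all features did. By 1dpa 29 of 45 had fallen, against 4.18% of all features, and by 2dpa 34 of 45, against 6.90%. None rose, where 23.6%, 5.24% and 10.2% of all features did. The median log2 change of the 45 was -1.19, -0.95 and -1.04, and that of all features -0.19, 0.06 and 0.09. At 6hpa 31 features fell in both RNAi groups, out of 35 and 34, where 15.8% of all features did. At 1dpa 19 did, out of 25 and 29, against 2.68% of all, and at 2dpa 22, out of 25 and 34, against 2.58%.

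With SMED30032887 removed and libraries rescaled, 36, 22 and 21 features fell in opa1;egfp tails at 6hpa, 1dpa and 2dpa, where 26.2%, 11.3% and 2.67% of all features did. In opa1;drp1 tails 41, 27 and 32 fell, where 38.6%, 2.84% and 3.77% of all features did. That rescaling moved the median of all features to -0.24, 0.13 and 0.15 in opa1;egfp and to -0.42, 0.14 and 0.23 in opa1;drp1 tails. The deposited TPM values, which correct for length, covered 35 of the 45 features. Their library totals were unequal, from 473866 to 744452, so they may be partial. They were not rescaled here, so shifts shared by all features of a library may remain. On that scale 27, 11 and 10 of 35 fell in opa1;egfp tails, where 17.8%, 4.98% and 1.05% of all features did, and 32, 16 and 18 in opa1;drp1 tails, where 35.9%, 0.998% and 1.46% did. The median of all features was then -0.13, 0.24 and 0.24 in opa1;egfp and -0.38, 0.23 and 0.36 in opa1;drp1 tails.

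Across the 6 comparisons, of which the 3 in each RNAi share their 0dpa libraries, 12 of the 45 fell in every one, as did 0.377% of all features. They were SMED30015328, SMED30004333, SMED30029500, SMED30031541, SMED30020257, SMED30000467, SMED30016591, SMED30000537, SMED30014121, SMED30023488, SMED30012012 and SMED30008762. Another 8 fell in 5 comparisons, 13 in 4, 2 in 3, 4 in 2 and 4 in 1. SMED30018560 and SMED30010682 passed the test in none of the 6. For counts under 6 the shares of all features were not computed, so nothing is read from those counts.

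**Figure D2:**
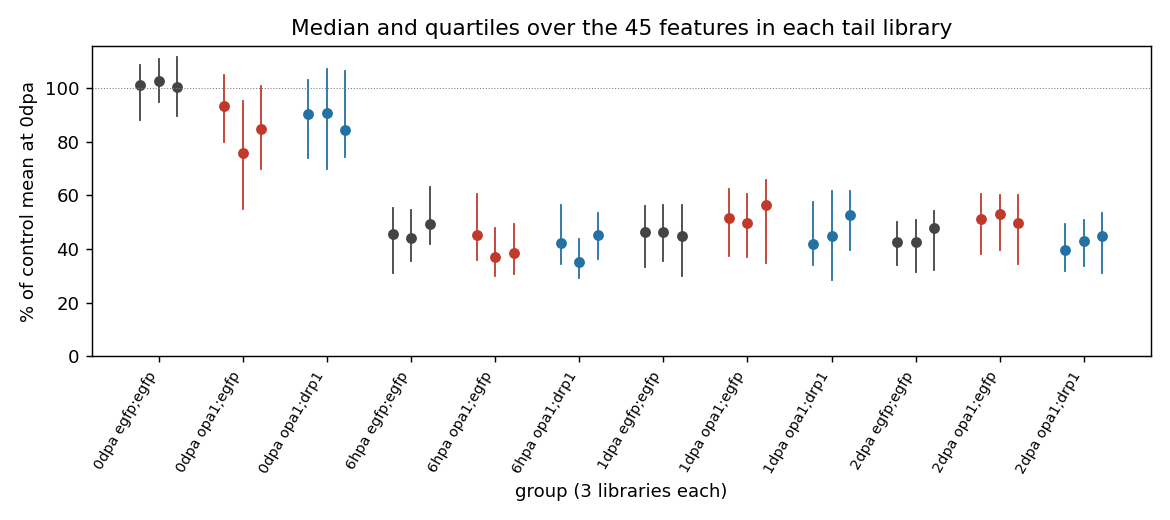
Median (point) and quartiles (line) over the 45 features in each tail library, as a percentage of each feature's control mean at 0dpa, for 12 groups of 3 libraries. Library medians run from 75.9% to 102.7% at 0dpa and from 35.1% to 56.4% at all later times.

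The falls showed library by library. Over the 45 features, the median percentage of the control 0dpa mean was 75.9% to 93.4% in the opa1;egfp libraries at 0dpa, 36.9% to 45.3% at 6hpa, 49.9% to 56.4% at 1dpa and 49.6% to 53.2% at 2dpa. In opa1;drp1 libraries it was 84.3% to 90.8%, then 35.1% to 45.2%, 42.0% to 52.7% and at 2dpa had 39.6% as its lowest and 42.9% as its middle value. No later library reached the range of the 0dpa libraries. A high control 0dpa mean was part of the selection, so a median under 100% of it in RNAi tails at 0dpa is a description. Feature by feature, all 3 libraries at 0dpa were above all 3 at 6hpa, 1dpa and 2dpa for 36, 25 and 32 features in opa1;egfp tails, where 22.9%, 16.8% and 14.1% of all features were so separated. Under double RNAi they were for 33, 38 and 41 features, against 31.5%, 12.5% and 15.9%.

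The lowest of the 3 later times was 6hpa for 22 features, 1dpa for 8 and 2dpa for 15 in opa1;egfp tails, and 18, 11 and 16 in opa1;drp1 tails. From 6hpa to 2dpa 14 features rose and 3 fell in opa1;egfp tails, where 26.6% of all features rose and 19.0% fell. In opa1;drp1 tails 8 rose and 13 fell, where 32.4% and 23.0% of all features did. With SMED30032887 removed the second split was 18 up and 6 down, where 47.6% of all features rose and 16.0% fell. In the TPM values it was 25 up and 2 down of 35, where 53.4% and 8.25% of all did. In opa1;egfp tails the TPM values gave 15 up and 1 down of 35, where 35.5% and 9.74% of all did. The median of all features from 6hpa to 2dpa moved with these scales, from 0.19 to 0.42 and 0.40 in opa1;egfp and from 0.25 to 0.62 and 0.73 in opa1;drp1 tails.

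SMED30015328 had the lowest maximum difference under the rule. In control tails its scaled values were 3079.9, 3730.2 and 1925 at 0dpa, 153, 268 and 152 at 6hpa, 415, 364 and 343 at 1dpa, then 602, 550.2 and 279 at 2dpa. The opa1;egfp libraries read 1248, 797 and 749 at 0dpa, 215, 122 and 119 at 6hpa, 439.8, 627 and 385 at 1dpa, then 314, 437 and 312 at 2dpa. The opa1;drp1 libraries read 4322, 3188 and 4833 at 0dpa, 220.2, 142 and 196 at 6hpa, 848, 813 and 806 at 1dpa, then 1098, 1096 and 904 at 2dpa. At 0dpa every opa1;egfp library lay below every opa1;drp1 library, and at 6hpa these groups overlapped.

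From 0dpa to 6hpa SMED30015328 fell in opa1;egfp tails with a log2 change of -2.63 (SE 0.26, limma adjusted p = 1.91e-09), 6.18-fold, and in opa1;drp1 tails with one of -4.46 (SE 0.26, limma adjusted p = 1.37e-14), 22-fold. The difference between these changes was -1.83 (SE 0.37, limma adjusted p = 0.00774). Under double RNAi the level was above that in opa1;egfp tails at 0dpa by 2.16 (SE 0.26, limma adjusted p = 6.55e-06) and at 2dpa by 1.55 (SE 0.26, limma adjusted p = 0.000574). With double RNAi the feature rose again from 6hpa to 2dpa, by 2.48 (SE 0.26, limma adjusted p = 5.12e-10).

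SMED30023781 was the other feature that differed between these tails at 0dpa. Its values there were 131, 73.6 and 63.7 in opa1;egfp tails, below the 256, 183 and 317 of opa1;drp1 tails. At 2dpa the opa1;egfp libraries read 32.4, 42.9 and 34.6, and the opa1;drp1 libraries, at 122, 132 and 105, stood above them. Control tails, which chose the features, read 249.6, 209.9 and 169.7 at 0dpa and 46.8, 51.3 and 25.7 at 2dpa. Its level in opa1;drp1 tails was above that in opa1;egfp tails by 1.52 (SE 0.27, limma adjusted p = 0.00277) at 0dpa and 1.68 (SE 0.27, limma adjusted p = 0.000204) at 2dpa. At 1dpa the difference was 1.29 (SE 0.27, limma adjusted p = 0.0139), a call lost in 3 of the 6 fits without 1 library (double RNAi 1dpa replicates 1 and 2, opa1;egfp 1dpa replicate 3), and also when only the libraries compared were fitted and in the TPM values.

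**Figure D3:**
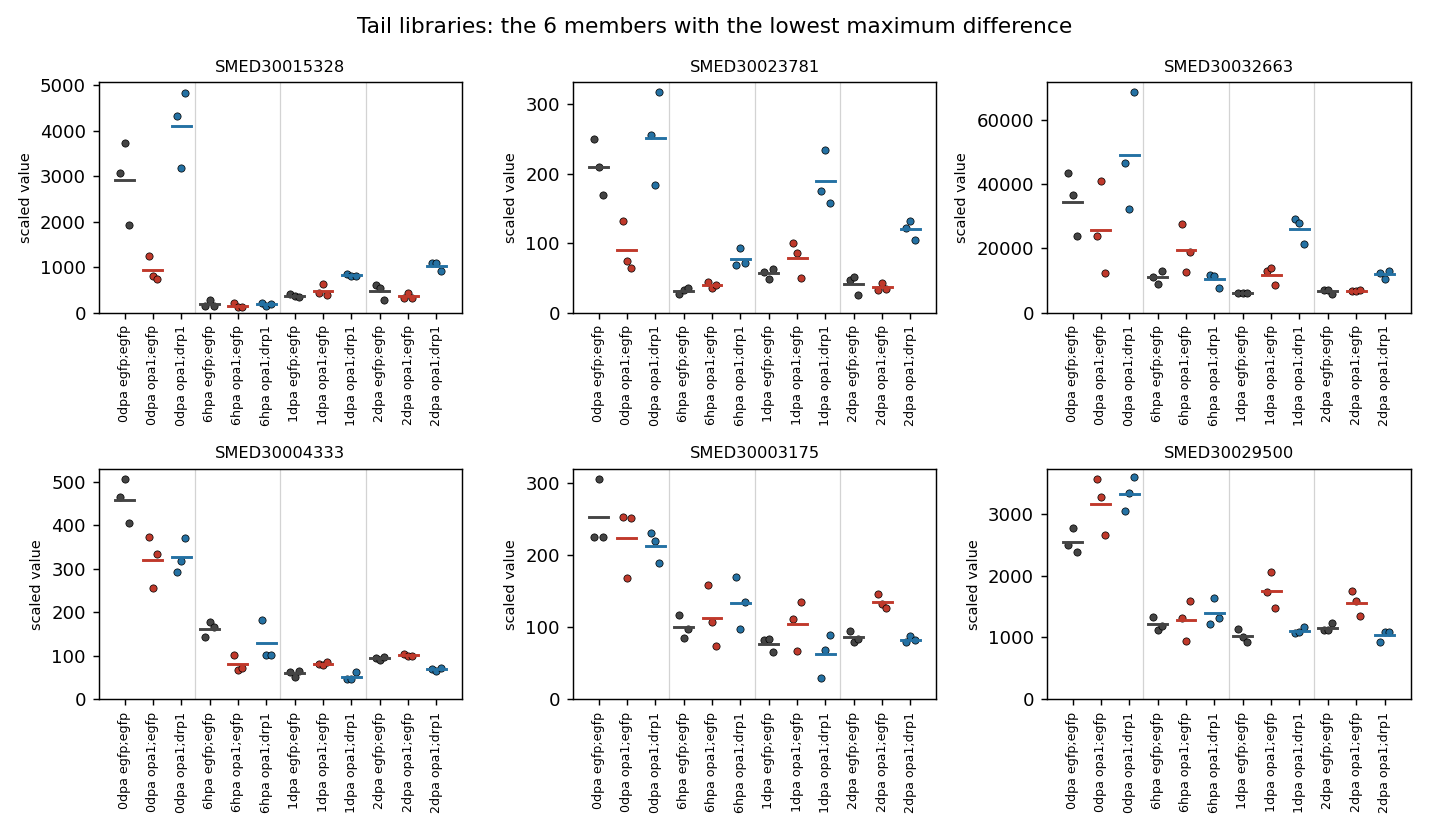
Scaled value in every tail library (points, 3 per group) and group mean (bar) of the 6 features with the lowest maximum difference in control tails, by time and RNAi. For SMED30015328 at 0dpa the opa1;egfp libraries, at 749 to 1248, lie below those of opa1;drp1 tails.

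SMED30032663 had the highest scaled value of the 45 in control tails at 0dpa. Control libraries read 43287, 36576 and 23640.4 at 0dpa, 11054, 8738 and 13045 at 6hpa, 6196, 5970.4 and 6176 at 1dpa, then 7066, 6943 and 5832 at 2dpa. In opa1;egfp tails it read 23905, 40781 and 12300.5 at 0dpa and 27616, 12455 and 18688 at 6hpa, which overlapped, with a log2 change of -0.30 (SE 0.28, limma adjusted p = 0.427). Under double RNAi it read 46384, 32289.9 and 68442 at 0dpa and 11678, 11468 and 7688 at 6hpa without overlap, a log2 change of -2.21 (SE 0.28, limma adjusted p = 3.63e-08).

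The change of SMED30032663 to 6hpa differed between the RNAi groups by -1.91 (SE 0.40, limma adjusted p = 0.00781). From 6hpa to 2dpa it fell in opa1;egfp tails, with a log2 change of -1.45 (SE 0.28, limma adjusted p = 7.91e-05), and reached 6726, 6840.3 and 6858. With double RNAi at 2dpa it stood at 12222, 10542 and 12844, below its 0dpa libraries. Its whole-body estimated counts were fractional in 58.3% of libraries, which marks reads divided among similar features, so its level is uncertain.

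SMED30004333 and SMED30029500 fell in all 6 comparisons. SMED30004333 read 372, 256 and 333 at 0dpa and 80.3, 79.6 and 84.5 at 1dpa in opa1;egfp tails, and 293, 318 and 370.4 and 46.2, 45.6 and 63.8 in opa1;drp1 tails. The times were well apart in both, with log2 changes of -1.94 (SE 0.19, limma adjusted p = 2.41e-09) and -2.64 (SE 0.19, limma adjusted p = 3.75e-12). SMED30029500 read 3564, 3268 and 2664 at 0dpa and 1758, 1594 and 1344 at 2dpa in opa1;egfp tails, a log2 change of -1.01 (SE 0.14, limma adjusted p = 7.72e-06). In opa1;drp1 tails it read 3039, 3341 and 3592 and 929, 1094 and 1084, a log2 change of -1.68 (SE 0.14, limma adjusted p = 2.34e-10).

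At 2dpa every opa1;drp1 library of SMED30029500 was below every opa1;egfp library, a difference of -0.59 (SE 0.14, limma adjusted p = 0.033). At 1dpa the difference was -0.65 (SE 0.14, limma adjusted p = 0.0239), a call lost in 5 of the 6 fits without 1 library (double RNAi 1dpa replicates 1, 2 and 3, opa1;egfp 1dpa replicates 1 and 2), and also when only the libraries compared were fitted. SMED30003175 read 253, 169 and 251 at 0dpa and 146, 132 and 126 at 2dpa in opa1;egfp tails, with a log2 change of -0.71 (SE 0.28, limma adjusted p = 0.103). It read 231, 219 and 189 and 79.5, 87.7 and 81.9 in opa1;drp1 tails, with a change of -1.35 (SE 0.28, limma adjusted p = 0.000767). Its times did not overlap in either RNAi group.

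SMED30028142, SMED30004098 and SMED30005838 were the other most abundant features in scaled value. SMED30028142 read 5059, 3649.8 and 4965 at 0dpa and 2402, 2493 and 2662 at 2dpa in opa1;egfp tails, a log2 change of -0.84 (SE 0.17, limma adjusted p = 0.000922), and 3750.1, 5078 and 3459.6 and 1709.8, 2147 and 2185 in opa1;drp1 tails, a change of -1.01 (SE 0.17, limma adjusted p = 4.56e-05). SMED30004098 read 3597, 2479 and 3436 at 0dpa, 1399, 864 and 1126 at 6hpa and 2561, 2409 and 2501 at 2dpa in opa1;egfp tails, so it was lowest at 6hpa. Its log2 change was -1.50 (SE 0.14, limma adjusted p = 8.88e-10) at 6hpa and -0.33 (SE 0.14, limma adjusted p = 0.139) at 2dpa. In opa1;drp1 tails SMED30004098 read 3437, 3699 and 4098 at 0dpa, 1422, 1078 and 1107 at 6hpa and 2680, 1788 and 2277 at 2dpa. There the 0dpa libraries overlapped with neither later time. SMED30005838 read 6189, 3537 and 5053 at 0dpa and 2982, 2296 and 2449.8 at 2dpa in opa1;egfp tails, a change of -0.91 (SE 0.27, limma adjusted p = 0.0267), and 2519, 4039 and 2940.5 and 1596, 2401 and 2139 in opa1;drp1 tails, a change of -0.62 (SE 0.27, limma adjusted p = 0.111).

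The deepest changes by 2dpa were those of SMED30022886 and SMED30034978, with wide spread among replicates at 0dpa. SMED30022886 read 92.3, 3.99 and 127 in control, 4.48, 211 and 25.7 in opa1;egfp and 653, 198 and 511 in opa1;drp1 tails at 0dpa. At 2dpa all 9 of its libraries lay at 0 to 3.92. SMED30034978 read 6.83, 106 and 27.7 at 0dpa and 0, 0.725 and 13.0 at 2dpa in opa1;egfp tails, where the times overlapped. In opa1;drp1 tails it read 159, 74.8 and 151 and 3.31, 3.16 and 0. Both features were at 0 in at least 1 library, so the fitted sizes depend on the added 1.

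With double RNAi the log2 change to 2dpa was -7.90 (SE 1.28, limma adjusted p = 3.67e-05) for SMED30022886 and -5.55 (SE 0.98, limma adjusted p = 0.000107) for SMED30034978. In opa1;egfp tails it was -4.52 (SE 1.28, limma adjusted p = 0.02) and -3.32 (SE 0.98, limma adjusted p = 0.0252). The first call was lost in 3 of the 6 fits without 1 library (opa1;egfp 0dpa replicate 2, opa1;egfp 2dpa replicates 2 and 3), and also in the TPM values. The second was lost in 4 of the 6 fits without 1 library (opa1;egfp 0dpa replicates 2 and 3, opa1;egfp 2dpa replicates 1 and 2). At 6hpa SMED30022886 read 269, 118 and 109 in opa1;drp1 and 0, 47.0 and 2.03 in opa1;egfp tails, without overlap. That difference was 4.86 (SE 1.28, limma adjusted p = 0.0255) and was lost in 4 of the 6 fits without 1 library (double RNAi 6hpa replicates 1 and 2, opa1;egfp 6hpa replicates 1 and 3). From 6hpa to 2dpa the pair fell further in opa1;drp1 tails, with log2 changes of -6.48 (SE 1.28, limma adjusted p = 5.41e-05) and -3.80 (SE 0.98, limma adjusted p = 0.00125).

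SMED30010682 and SMED30018560, which passed no tail test against 0dpa, had the smallest mean changes. SMED30010682 read 2746, 2194 and 1828 in control, 1062, 1229 and 1482 in opa1;egfp and 713, 1579 and 1702 in opa1;drp1 tails at 0dpa. At 2dpa its opa1;drp1 libraries read 1296, 1039 and 1412, within the range at 0dpa, and its difference from 0dpa had a limma adjusted p of 0.996. SMED30018560 read 61.1, 42.0 and 44.9 at 0dpa and 72.8, 62.7 and 81.9 at 6hpa in opa1;drp1 tails, a change of 0.56 (SE 0.27, limma adjusted p = 0.0774).

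Between 6hpa and 2dpa in opa1;egfp tails SMED30032529 went from 8.72, 7.80 and 13.7 to 27.6, 32.1 and 39.5, a rise of 1.64 (SE 0.41, limma adjusted p = 0.00135). SMED30010528 went from 224, 106 and 163 to 386, 427 and 396, a rise of 1.35 (SE 0.22, limma adjusted p = 7.33e-06). SMED30016817 fell, from 62.4, 87.1 and 54.4 to 30.8, 38.4 and 35.4 (-0.92, SE 0.24, limma adjusted p = 0.00184), a call lost in the TPM values. None of these 3 overlapped between the times. Under double RNAi SMED30009340 went from 43.8, 41.2 and 63.0 to 117, 92.4 and 136, a rise of 1.22 (SE 0.26, limma adjusted p = 0.000161), but its counts were fractional in every whole-body library.

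Set against each other at the same time, opa1;drp1 and opa1;egfp tails differed for 2 of the 45 features at 0dpa, where 0.764% of all features differed in either direction. They differed for 5 at 6hpa (4.76% of all), 2 at 1dpa (0.300%) and 7 at 2dpa (0.735%). At 2dpa 5 were lower with opa1;drp1 and 2, SMED30023781 and SMED30015328, higher, where 0.469% and 0.266% of all features were. SMED30025545 read 34.5, 51.7 and 25.1 in opa1;egfp and 1.66, 3.88 and 11.1 in opa1;drp1 tails, a difference of -2.76 (SE 0.48, limma adjusted p = 0.000882). SMED30003661 read 123, 156 and 179 and 37.4, 71.9 and 50.1, a difference of -1.54 (SE 0.26, limma adjusted p = 0.000775). Neither overlapped between the RNAi groups. In the TPM values 4 features differed at 2dpa, 2 in each direction, where 0.281% of all were lower and 0.189% higher.

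All 5 features that differed at 6hpa were higher with opa1;drp1, where 2.4% of all features were higher and 2.36% lower. That direction turned with the scale, since 3 were higher and 2 lower with SMED30032887 removed, where 1.29% and 4.61% of all features were. In the TPM values 1 was higher and 7 lower, where 0.414% and 20.4% of all were and the median of all features was -0.26. SMED30007489, 1 of the 5, read 200.2, 176 and 131 in opa1;drp1 and 107, 63.2 and 69.9 in opa1;egfp tails, a difference of 1.09 (SE 0.33, limma adjusted p = 0.046). It was lost in 4 of the 6 fits without 1 library (double RNAi 6hpa replicates 1 and 2, opa1;egfp 6hpa replicates 2 and 3), and also without a filter, when only the libraries compared were fitted, in the TPM values and with SMED30032887 removed.

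The change from 0dpa differed between opa1;drp1 and opa1;egfp tails for 2 of the 45 at 6hpa, SMED30015328 and SMED30032663, where it differed for 7.45% of all features. At 1dpa and 2dpa limma called 0 of the 45, and 0.416% and 0.00% of all features. At an unadjusted p under 0.05 there were 16 and 14 of the 45, and 13.2% and 5.82% of all. A count of 0 does not show that the changes were alike.

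**Figure D4:**
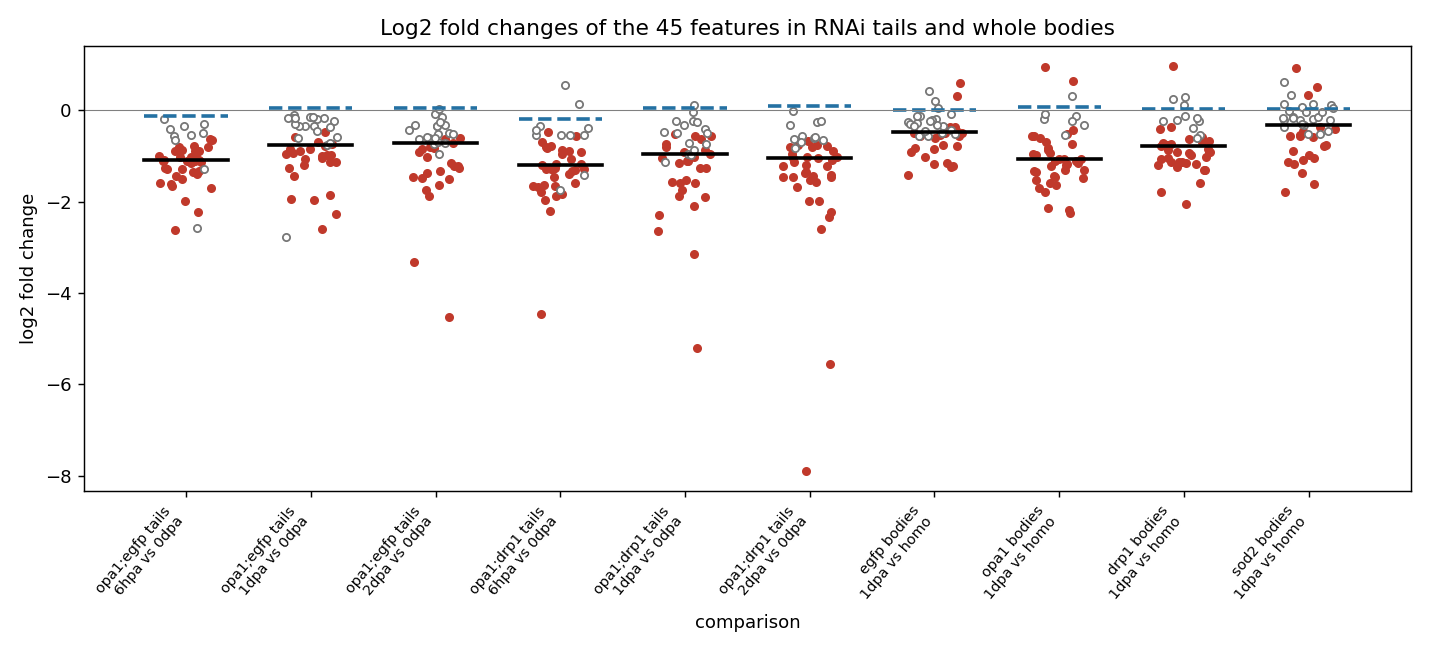
Log2 fold change of each of the 45 features in the 6 RNAi tail comparisons with 0dpa and the 4 whole-body comparisons of 1dpa with homo, red and filled where the adjusted p was under 0.05 and open otherwise, with the median of the 45 (black line) and of all features tested (blue dashed line). The median of the 45 runs from -1.19 to -0.32 and lies below that of all features in each comparison.

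Whole bodies were a separate experiment, normalized separately and not used by the rule, and all 45 features had at least 10 estimated counts in each of its libraries. Levels there are CPM, counts scaled to the library total adjusted by TMM factors, which allow for differences in composition. From homo to 1dpa, 22 of 45 features fell and 2 rose in egfp bodies, where 8.89% and 9.83% of all 22889 features tested did. In opa1 bodies 36 fell and 2 rose (26.0% and 27.2% of all), in drp1 bodies 33 fell and 1 rose (16.2% and 16.1%), and in sod2 bodies 18 fell and 3 rose (9.45% and 8.78%). The median log2 change of the 45 was -0.47 in egfp, -1.06 in opa1, -0.77 in drp1 and -0.32 in sod2 bodies, and that of all features 0.01, 0.09, 0.03 and 0.02. The test was edgeR's quasi-likelihood test with Benjamini-Hochberg adjustment over all features. It reports no SE, so each SE given with it is the size of the log2 change over the square root of the F statistic. Such an SE restates the test and is no separate measure of precision.

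All 3 homo libraries were above all 3 at 1dpa for 22 features in egfp, 37 in opa1, 33 in drp1 and 23 in sod2 bodies, where 14.9%, 28.4%, 21.0% and 17.9% of all features were. Those that fell in all 4 RNAi groups were 13 of the 45, where 3.65% of all features did: SMED30003175, SMED30029500, SMED30009340, SMED30024718, SMED30014121, SMED30028142, SMED30025545, SMED30006247, SMED30014987, SMED30008762, SMED30016817, SMED30003661 and SMED30010528. Of these, 3 had also fallen in all 6 RNAi tail comparisons, namely SMED30029500, SMED30014121 and SMED30008762. The share of all features that fell in both sets of comparisons was not computed, so nothing is read from this overlap. The 7 that fell in none of the 4 were SMED30007298, SMED30024291, SMED30032529, SMED30016132, SMED30023488, SMED30011970 and SMED30010682. The share of all features that fell in none was not computed, so nothing is read from that count.

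SMED30010528 fell by a like amount in every RNAi group. Its CPM were 334, 316 and 264 at homo and 115, 149.6 and 122 at 1dpa in egfp bodies, and 385, 374 and 356 and 192, 155 and 166 in opa1 bodies. The other groups read 309.9, 241 and 284 and 134, 110.3 and 126 with drp1, and 338, 335 and 363 and 149, 157 and 157 with sod2. Homo and 1dpa libraries did not overlap in any group. The log2 change was -1.24 (SE 0.10, edgeR adjusted p = 1.97e-10) in egfp, -1.12 (SE 0.10, edgeR adjusted p = 9.2e-11) in opa1, -1.17 (SE 0.10, edgeR adjusted p = 3.41e-10) in drp1 and -1.16 (SE 0.10, edgeR adjusted p = 5.81e-10) in sod2 bodies. Its counts were fractional in 95.8% of whole-body libraries, so reads may be shared with similar features.

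SMED30025545, a feature of low level, read 12.9, 11.5 and 8.73 CPM at homo and 3.34, 4.40 and 4.62 at 1dpa in egfp bodies, a log2 change of -1.42 (SE 0.22, edgeR adjusted p = 1.59e-05). In drp1 bodies it was already low at homo, at 5.57, 4.0 and 5.93, below every egfp library, a difference of -1.09 (SE 0.22, edgeR adjusted p = 0.000394). SMED30012012 fell in drp1 bodies from 3.11, 4.31 and 4.79 to 1.23, 1.23 and 1.04 CPM (-1.79, SE 0.37, edgeR adjusted p = 0.000285) and in sod2 bodies from 2.68, 4.11 and 4.78 to 1.34, 0.810 and 1.17 (-1.78, SE 0.36, edgeR adjusted p = 0.000651). SMED30031541 fell in sod2 bodies from 6.47, 7.37 and 3.95 to 2.61, 1.38 and 1.75 CPM (-1.62, SE 0.26, edgeR adjusted p = 4.2e-05).

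SMED30010682 rose in whole bodies in all 4 RNAi groups. Its CPM at homo and 1dpa were 89.4, 65.5 and 103 and 131, 135 and 125 in egfp bodies, and 67.1, 57.6 and 73.4 and 131, 131 and 120.4 in opa1 bodies. They were 60.9, 66.7 and 65.7 and 126, 124 and 129 with drp1, and 109.8, 104 and 89.5 and 130.4, 172 and 134 with sod2, so every 1dpa library was above every homo library in each group. The log2 change was 0.60 (SE 0.11, edgeR adjusted p = 0.00024) in egfp, 0.95 (SE 0.11, edgeR adjusted p = 3.09e-08) in opa1, 0.97 (SE 0.11, edgeR adjusted p = 1.01e-07) in drp1 and 0.52 (SE 0.11, edgeR adjusted p = 0.000949) in sod2 bodies. SMED30007298 was the other feature called higher in egfp bodies, at 25.9, 28.7 and 30.3 against 23.6, 22.5 and 22.4 CPM (0.31, SE 0.11, edgeR adjusted p = 0.0392), a call lost in 5 of the 6 fits without 1 library (egfp 1dpa replicates 2 and 3, egfp homo replicates 1, 2 and 3), and also with RLE size factors, without a filter and when only the libraries compared were fitted.

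**Figure D5:**
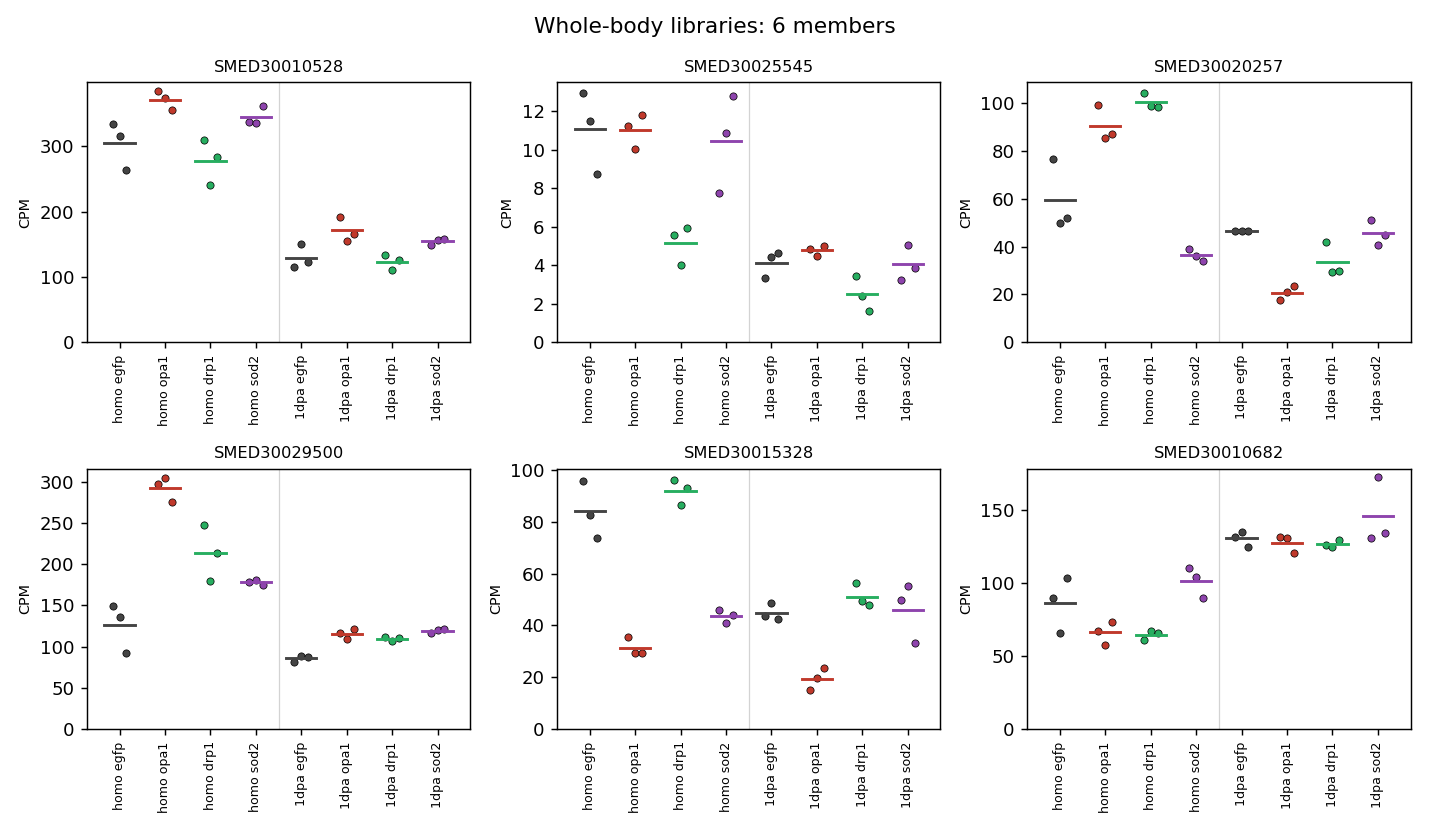
CPM of 6 of the 45 features in every whole-body library (points, 3 per group) and group mean (bar), for 4 RNAi groups at homo and at 1dpa. SMED30010528 falls and SMED30010682 rises from homo to 1dpa in all 4 groups, and SMED30020257 is highest at homo in opa1 and drp1 bodies.

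Against egfp bodies at homo, 20 of the 45 features were higher and 4 lower in opa1 bodies, where 19.2% and 15.6% of all features were. In drp1 bodies 14 were higher and 6 lower (13.7% and 10.5% of all). In sod2 bodies 4 were higher and 5 lower (2.15% and 1.61%), 9 in either direction (3.77%). At 1dpa the balance was the other way in the first 2. In opa1 bodies 4 were higher and 10 lower (4.57% and 6.64%), and in drp1 bodies 5 were higher and 11 lower (3.83% and 3.36%). In sod2 bodies at 1dpa edgeR called 1, SMED30029500 (0.393% of all in either direction), and 12 had an unadjusted p under 0.05, as had 7.27% of all.

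The change from homo to 1dpa was further down than in egfp bodies for 16 of the 45 in opa1 bodies, where it was for 15.7% of all features, and further up for none, where it was for 12.8% of all. In drp1 bodies it was further down for 7 (2.89% of all), and in sod2 bodies it differed for 1, upward (0.144% in either direction). These differences use the same libraries as the comparisons at homo and at 1dpa, so they are not separate evidence. The drp1 count ran from 1, without drp1 replicate 2 at 1dpa, to 11, without egfp replicate 1 at homo.

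SMED30020257 had the largest of these differences among the features named for them. Its CPM at homo were 76.9, 49.7 and 52.0 in egfp, 99.2, 85.4 and 87.4 in opa1, 104, 99.0 and 98.3 in drp1 and 38.9, 35.9 and 34.1 in sod2 bodies. At 1dpa they were 46.4, 46.5 and 46.5 in egfp, 17.4, 21.0 and 23.4 in opa1, 41.9, 29.3 and 29.6 in drp1 and 51.1, 40.8 and 44.8 in sod2 bodies. Bodies with opa1 or drp1 RNAi thus stood above egfp bodies at homo and below them at 1dpa, with no overlap. The change differed from that in egfp bodies by -1.78 (SE 0.19, edgeR adjusted p = 5.86e-08) with opa1 and -1.23 (SE 0.18, edgeR adjusted p = 0.000196) with drp1.

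SMED30033100 read 155, 131 and 125 CPM at homo and 51.5, 44.7 and 52.6 at 1dpa in opa1 bodies. In egfp bodies it read 108, 95.1 and 80.9 and 77.4, 89.1 and 80.8, which overlapped, and the changes differed by -1.27 (SE 0.13, edgeR adjusted p = 7.47e-08). SMED30004098 read 129, 138 and 127 at homo and 91.8, 75.8 and 86.7 at 1dpa in drp1 bodies and 113, 159 and 85.9 and 124, 122 and 127 in egfp bodies. The changes differed by -0.70 (SE 0.16, edgeR adjusted p = 0.0131), a call lost without drp1 replicate 2 at 1dpa and when only the libraries compared were fitted.

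SMED30018560, with no call in the RNAi tail comparisons, had the deepest fall of the 45 in opa1 bodies, from 18.7, 21.9 and 22.5 to 4.11, 4.0 and 5.19 CPM (-2.25, SE 0.24, edgeR adjusted p = 4.31e-09, 4.75-fold). SMED30005838 followed, from 797, 940.0 and 1051 to 209.5, 161 and 249 CPM (-2.17, SE 0.14, edgeR adjusted p = 7.62e-13). In drp1 bodies the deepest fall was that of SMED30022886, from 428, 370.0 and 373 to 139, 79.1 and 63.0 CPM (-2.06, SE 0.17, edgeR adjusted p = 2.96e-10). Homo and 1dpa did not overlap for any of these 3.

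SMED30015328 and SMED30023781, the 2 features that differed between opa1;drp1 and opa1;egfp tails at 0dpa, were lower with opa1 than with egfp in whole bodies. SMED30015328 read 35.4, 29.4 and 29.2 CPM in opa1 bodies at homo, below the 95.9, 82.6 and 73.9 of egfp and the 96.4, 86.4 and 93.3 of drp1 bodies, a difference from egfp of -1.43 (SE 0.14, edgeR adjusted p = 7.26e-09). At 1dpa it read 15.1, 19.8 and 23.4 in opa1 and 43.5, 48.8 and 42.4 in egfp bodies, a difference of -1.21 (SE 0.14, edgeR adjusted p = 4.1e-07). With sod2 it read 45.7, 40.8 and 43.8 at homo, also below egfp bodies, and 49.8, 55.2 and 33.1 at 1dpa.

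The change of SMED30015328 in sod2 bodies differed from that in egfp bodies by 0.99 (SE 0.19, edgeR adjusted p = 0.0163), a call lost in 6 of the 12 fits without 1 library (egfp 1dpa replicate 1, egfp homo replicate 1, sod2 1dpa replicates 1 and 2, sod2 homo replicates 2 and 3). SMED30023781 read 4.46, 4.25 and 3.16 CPM in opa1 and 3.12, 3.10 and 3.19 in sod2 bodies at homo, below the 8.20, 8.48 and 7.31 of egfp bodies. The differences were -1.01 (SE 0.26, edgeR adjusted p = 0.00343) and -1.35 (SE 0.27, edgeR adjusted p = 0.00358). In sod2 bodies it rose to 6.57, 5.91 and 5.62 at 1dpa (0.94, SE 0.27, edgeR adjusted p = 0.0132), and in opa1 bodies at 1dpa it stood at 2.15, 1.72 and 4.28, a difference from egfp of -1.45 (SE 0.26, edgeR adjusted p = 0.000276).

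Among the features higher than in egfp bodies at homo, SMED30007903 read 16.9, 18.3 and 13.6 CPM in opa1 and 6.43, 6.49 and 6.65 in egfp bodies (1.31, SE 0.17, edgeR adjusted p = 8.64e-07, 2.49-fold). SMED30029500 read 298, 305 and 276 in opa1, 248, 179 and 214 in drp1 and 178, 182 and 174 in sod2 bodies, all above the 149.9, 136 and 91.5 of egfp bodies. Its difference from egfp was 1.22 (SE 0.11, edgeR adjusted p = 1.81e-09) with opa1. SMED30005838 read 1009, 890.4 and 922 in drp1 and 560.3, 419 and 361 in egfp bodies (1.07, SE 0.14, edgeR adjusted p = 1.6e-06).

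SMED30007489 was higher in drp1 than in egfp bodies at both times. It read 37.5, 33.5 and 39.2 against 18.4, 19.1 and 10.5 CPM at homo and 26.4, 24.7 and 22.9 against 12.8, 14.1 and 13.6 at 1dpa, without overlap. The differences were 1.20 (SE 0.15, edgeR adjusted p = 1.25e-06) and 0.87 (SE 0.16, edgeR adjusted p = 0.000344). At 1dpa SMED30014121 was higher with drp1, at 13.2, 11.5 and 14.5 against 8.65, 8.80 and 7.93 CPM (0.62, SE 0.13, edgeR adjusted p = 0.00241). SMED30032529, at 4.20, 5.24 and 5.13 against 10.4, 9.95 and 8.73 (-0.99, SE 0.23, edgeR adjusted p = 0.00434), and SMED30013262, at 2.72, 2.69 and 2.25 against 4.43, 5.34 and 5.51 (-0.99, SE 0.23, edgeR adjusted p = 0.00458), were lower.

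Several smaller differences rested on few libraries. In opa1 bodies at 1dpa SMED30029437 was higher by 0.61 (SE 0.19, edgeR adjusted p = 0.0281) and SMED30007489 by 0.47 (SE 0.16, edgeR adjusted p = 0.0472). The call of SMED30029437 was lost in 4 of the 6 fits without 1 library (egfp 1dpa replicates 1 and 3, opa1 1dpa replicates 1 and 3), and that of SMED30007489 in 6 of the 6 fits without 1 library, and also with RLE size factors and with the replicate number as a block. In drp1 bodies at homo SMED30032529 was lower, at -0.81 (SE 0.24, edgeR adjusted p = 0.015), lost in 3 of the 6 fits without 1 library (drp1 homo replicates 1 and 3, egfp homo replicate 3). In sod2 bodies at homo SMED30018560 differed by -0.99 (SE 0.25, edgeR adjusted p = 0.0201), SMED30029437 by 0.62 (SE 0.18, edgeR adjusted p = 0.0422) and SMED30028142 by 0.51 (SE 0.11, edgeR adjusted p = 0.00839). The first of these was lost in 4 of the 6 fits without 1 library (egfp homo replicate 1, sod2 homo replicates 1, 2 and 3) and the last in 2 of the 6 fits without 1 library (egfp homo replicate 3, sod2 homo replicate 3). That of SMED30029437 was lost in 5 of the 6 fits without 1 library (egfp homo replicates 1, 2 and 3, sod2 homo replicates 2 and 3), and also without a filter and when only the libraries compared were fitted. SMED30029500 in sod2 bodies at 1dpa, 0.48 (SE 0.11, edgeR adjusted p = 0.0386), was lost in 6 of the 6 fits without 1 library.

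Per unit length the features spanned a wide range. In egfp bodies at homo SMED30005838 had the highest TPM, 5522 ± 993 (SD, n = 3), followed by SMED30032663 at 634 ± 125 and SMED30022886 at 563 ± 44.1, which do not differ beyond their spread. SMED30016132 at 2.24 ± 0.732 and SMED30024291 at 1.58 ± 0.366 were the lowest. Relative length, from the ratio of count to TPM and set against the median of 23065 features, had a median of 0.701 over the 45, and 14 of the 45 were at or above 1 on that scale. SMED30023781 was at 0.0268, SMED30005838 at 0.0576 and SMED30035526 at 0.0781, so their TPM rest on very short lengths. In CPM in egfp bodies at homo SMED30005838 read 560.3, 419 and 361, below the 1313, 1364 and 1632 of SMED30032663. Over the 11780 features at 50 or more in control tails at 0dpa the median relative length was 1.29. Of the 45, 37 had no fractional estimated count, as had 87.5% of those 11780, and 6 had fractional counts in most whole-body libraries, as had 8.95%.

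For egfp bodies at homo over control tails at 0dpa, levels were scaled to the plain library total, without TMM factors. Their log2 ratio had a median of -0.35 over the 45 and 0.17 over all features tested, and 13 of the 45 were above the latter. The experiments were normalized separately and the control 0dpa level was part of the selection, so these ratios are a description. SMED30022886 and SMED30034978 stood apart, at 336 and 293 in bodies and 7.36 and 5.66 in tails on that plain scale. In egfp bodies at homo SMED30022886 read 381, 347 and 289 CPM and SMED30034978 306, 306 and 271, a far narrower spread than in tails. At 1dpa they read 141, 173 and 147 and 203, 183 and 215, with log2 changes of -1.14 (SE 0.17, edgeR adjusted p = 9.15e-06) and -0.55 (SE 0.12, edgeR adjusted p = 0.00156).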

How the data were processed

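The members and lists were chosen with earlier results of these data known. The names of the deposited tables give kallisto as the authors' quantifier, and its version, index and genome build are not given in the sources used here. Whole-body estimated counts were deposited unscaled, with 89.8% to 91.5% of non-zero values whole, and were rounded here. Tail values were deposited already scaled by the authors in a way not given in the sources used here, none of the non-zero values being whole, so they were treated as a signal and no count model was used. The deposited TPM values of tails, for 27444 features, and of whole bodies came from the authors' own estimates. No per-sample column was left unused (0).

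Tail values were tested with limma 3.58.1 (trend) on log2 of the value plus 1, in 1 fit of the 36 libraries, for the 20681 features whose value reached 10 in 3 libraries or more. Body counts were tested with edgeR 4.0.16's quasi-likelihood test with TMM factors over all 24. R 4.3.3, Python 3.11.15, pandas 2.3.3 and matplotlib 3.10.9 were used, with DESeq2 1.42.0 as an alternative. The Benjamini-Hochberg threshold was 0.05, and all 45 members passed both filters. The fits were also run on simulated data in which far fewer features changed than here, and nothing is read from that run. Control tails were not tested as a result, and RNAi tails were not tested against control tails, since the rule used the control libraries.

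Named with values were the 6 members with the lowest maximum difference and the 6 with the highest control level at 0dpa. Those at the edges of the rule were named too. For RNAi tails at 2dpa against 0dpa the 2 largest called falls were named, whether or not libraries overlapped. From 6hpa to 2dpa, between RNAi groups and in whole bodies, the 2 largest called changes in each direction without overlap were named. The last were the 2 smallest p per difference of changes, and the 2 smallest and 2 largest mean changes. Replicate numbers were not used as pairs in the main fits. Correlations of same-numbered deviations ran from -0.13 to 0.13 in tails and from -0.17 to 0.17 in bodies. Their medians were 0.0021 and 0.0090, against 0.00095 and -0.0026 for other numbers. A range of correlations cannot exclude a weak pairing.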

Additional observations from a re-analysis of the deposited data

Results flagged for a closer look

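The results here are differences between RNAi groups in the change over time, each by a test of the difference itself. In tails the change from 0dpa to 6hpa differed between opa1;drp1 and opa1;egfp for 2 of the 45 features, SMED30015328 by -1.83 and SMED30032663 by -1.91 on the log2 scale. It differed for 7.45% of all features, so the count of 2 is no result about the 45. In whole bodies the change from homo to 1dpa was further down than in egfp bodies for 16 features with opa1 (15.7% of all features), of which SMED30020257 at -1.78 and SMED30033100 at -1.27 had the smallest adjusted p. With drp1 it was for 7 features (2.89% of all), of which SMED30020257 at -1.23 and SMED30004098 at -0.70 had the smallest adjusted p. With sod2 the change differed for 1, SMED30015328, at 0.99 (0.144% of all). SMED30015328 was already lower at 0dpa in opa1;egfp tails and at homo in sod2 bodies than in the group it is set against, and SMED30020257 and SMED30033100 were higher at homo in opa1 bodies. In drp1 bodies at homo SMED30020257 was also higher than in egfp bodies, by 0.76 (SE 0.13, edgeR adjusted p = 5.11e-05). The part of these starting levels in the differences was not tested.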

How the results depend on the processing

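No count or named value turned its direction under any alternative run, apart from the splits given with the results. The count of features with a different change at 6hpa between opa1;drp1 and opa1;egfp tails went from 2 to 4 with 10 added before the log and to 1 in the TPM values. The count that differed between these tails at 6hpa went from 5 to 3 without a filter, to 8 in the TPM values and to 1 when only the libraries compared were fitted. At 1dpa it went from 2 to 0 and 1 under the last 2 of these, and at 2dpa from 7 to 4 and 14. The counts of falls went to 11 and 10 in opa1;egfp and to 16 and 18 in opa1;drp1 tails at 1dpa and 2dpa in the TPM values, which hold 35 of the features. With only the libraries compared, the count with a different change at 2dpa went from 0 to 1, the sod2 count at 1dpa from 1 to 2, and the drp1 and sod2 counts with a different change from 7 and 1 to 4 and 2. The sod2 count also went to 3 without a filter and to 3 with DESeq2. The cause was not tested. The share of all features called moved with the setting too. Between opa1;drp1 and opa1;egfp tails at 6hpa, 2.36% of all features were lower and 2.40% higher in the main fit. With only the libraries compared, 0.139% were lower and 0.266% higher. The counts in this section, including those without 1 library and with the replicate number as a block, stand without such shares. Nothing about the selected features as a set is read from a count that moved. Leaving out 1 library gave 32 to 36, 21 to 24 and 18 to 23 falls in opa1;egfp tails and 28 to 33, 24 to 29 and 30 to 34 in opa1;drp1 tails. Between these tails it gave 2 to 3 features at 0dpa, 2 to 4 at 6hpa, 0 to 2 at 1dpa and 4 to 6 at 2dpa, and for a different change 2 to 5, 0 to 2 and 0 to 0. From 6hpa to 2dpa it gave 14 to 20 and 14 to 19. In bodies over time it gave 19 to 27 (egfp), 37 to 38 (opa1), 30 to 36 (drp1) and 19 to 21 (sod2). Against egfp it gave 17 to 28, 13 to 24 and 5 to 10 at homo, 10 to 14, 10 to 16 and 0 to 0 at 1dpa, and 14 to 20, 1 to 11 and 0 to 3 for a different change, in the order opa1, drp1 and sod2. The rule itself gave 40 to 65. Where leaving out 1 library moved a count by over 1.5 times, it is named here. The different-change count between these tails at 6hpa went from 2 to 4 without opa1;egfp 0dpa replicate 1 and 5 without opa1;egfp 6hpa replicate 2. The different-change count between these tails at 1dpa went from 0 to 1 without opa1;egfp 1dpa replicate 2 and 2 without opa1;egfp 0dpa replicate 1. The count between these tails at 6hpa went from 5 to 2 without opa1;egfp 6hpa replicates 1 and 3 and double RNAi 6hpa replicates 1 and 2. The count between these tails at 1dpa went from 2 to 0 without double RNAi 1dpa replicates 1 and 2 and 1 without opa1;egfp 1dpa replicates 1 and 3. The count between these tails at 2dpa went from 7 to 4 without opa1;egfp 2dpa replicate 2 and double RNAi 2dpa replicates 1 and 3. The different-change count of drp1 bodies went from 7 to 1 without drp1 1dpa replicate 2, 2 without egfp homo replicate 3, 3 without drp1 homo replicate 1, 4 without drp1 1dpa replicate 3 and 11 without egfp homo replicate 1. The different-change count of sod2 bodies went from 1 to 0 without egfp homo replicate 1, sod2 homo replicates 2 and 3, egfp 1dpa replicate 1 and sod2 1dpa replicate 1 and 3 without egfp homo replicates 2 and 3. The count of drp1 bodies at homo went from 20 to 13 without egfp homo replicate 3. The count of sod2 bodies at homo went from 9 to 5 without sod2 homo replicates 2 and 3. The count of sod2 bodies at 1dpa went from 1 to 0 without egfp 1dpa replicates 1, 2 and 3 and sod2 1dpa replicates 1, 2 and 3. The count of drp1 bodies at 1dpa went from 16 to 10 without egfp 1dpa replicate 2. With the replicate number as a block, 35, 25 and 25 features fell in opa1;egfp and 34, 30 and 34 in opa1;drp1 tails, and 18, 8 and 1 had a different change in opa1, drp1 and sod2 bodies. Of 36 tail and 24 body libraries, 17 and 13 were on average closest to libraries of their own number, out of 3 numbers. The block ended 1 named call, SMED30007489 in opa1 against egfp bodies at 1dpa. Each named value was refitted under several settings, and the following are counts of refits, not of values. With every library 343 refits kept the call and 17 lost it, and without 1 library 361 kept and 65 lost it. With 3 libraries a group, small changes of low features are not detectable, and the depth behind the scaled tail values is unknown.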
